A study of Mus musculus with 9 samples.

Results

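The 34 genes described here are transcripts by which astrocytes are recognised in the brain, such as Slc1a2, Aqp4, Gfap and Aldh1l1. They were taken from a given list of gene symbols, and all 34 were found among the 52636 genes of the count table. The rule sets no condition on measured values, but this list and the other gene lists below were chosen with earlier results of these data known. The libraries were made from cells of the mouse nucleus accumbens, the part of the ventral striatum that takes part in reward. The cells were sorted with an antibody to choline acetyltransferase (ChAT), which synthesises acetylcholine, to collect cholinergic interneurons, so astrocytes were not the cells sought. Of the 34 genes, 33 had enough counts to enter the test, and Mt2 did not.

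Libraries fell into 3 groups of 3, and all came from male C57BL/6 mice whose age the labels do not give. SUS and RES mice took cocaine by self-administration, each infusion holding 1.2 mg/kg. A fixed ratio stage with up to 40 infusions came first, and progressive ratio sessions of 23 h followed on 10 days. Tissue was taken on day 3 after their last session. Naive mice had received no cocaine and carry WT in their titles. The titles and the behavioural phenotype field name SUS and RES in opposite ways, so the groups keep the names of the titles and no difference is read as susceptibility or resilience. Bilateral punches were pooled from 2 to 3 mice per condition and dissociated with papain. The labels leave unsaid whether each library had a pool of its own, so the p-values below reflect variation among libraries that may be technical.

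Astrocytes take up the glutamate and GABA that neurons release, and they turn glutamate into glutamine, which neurons use again. They buffer potassium, move water at their endfeet on blood vessels, join one another through gap junctions, and supply neurons with lipids on apolipoprotein particles. When tissue is injured they become reactive, a state in which Gfap and a set of other genes rise. In the striatum they surround medium spiny neurons, and uptake of glutamate by the transporter encoded by Slc1a2 has been studied in the accumbens after cocaine.

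Total counts ran from 4471675 to 11155730 per library, and mitochondrial genes took 9.091% to 28.71% of them. Background was taken from 1134 olfactory receptor genes, which are silent in brain, as their count density, and it was 6.071 to 21.17 counts per exonic kb. Counts at that density made up 21.58% to 45.15% of the counts on nuclear genes, the most in RES replicate 3, which also had the highest scaling factor (1.581 in a range of 0.743 to 1.581). The label of cholinergic interneurons was not borne out by its markers on average: 0 of 12 cholinergic genes averaged over 3 times background. Their median was 0.913 to 1.83 times background per library. In single libraries, 2 of the 12 passed 3 times background in SUS replicate 2 and 1 in naive replicate 3, and none elsewhere. Of the 34 astrocyte genes, 30 averaged over 3 times background, with a median of 3.55 to 18.6 times background per library, and in RES replicate 3 only 20 of the 34 were over 3 times background.

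Levels per length placed Apoe first. The quantity compared between genes is the count per exonic kb, divided by the background of the same library and averaged over the 9 libraries. It was 156 for Apoe, 43.1 for Bcan, 40.3 for Slc1a2, 37.9 for Glul and 27.9 for Plpp3, which led the order. Apoe encodes the main lipid carrier of brain, Bcan the matrix proteoglycan brevican, Glul glutamine synthetase, and Plpp3 a lipid phosphatase. The next neighbours overlapped widely, since Apoe alone spanned 44.6 to 299.5 times background over the libraries and Slc1a2 spanned 11.6 to 90.5. At the foot of the order stood Gjb6 (2.67), Gfap (2.47), Cldn10 (2.27) and Mt2 (0.262). The most used marker of astrocytes, Gfap, was thus close to background in every library (1.96 to 2.9 times).

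**Figure D1:**
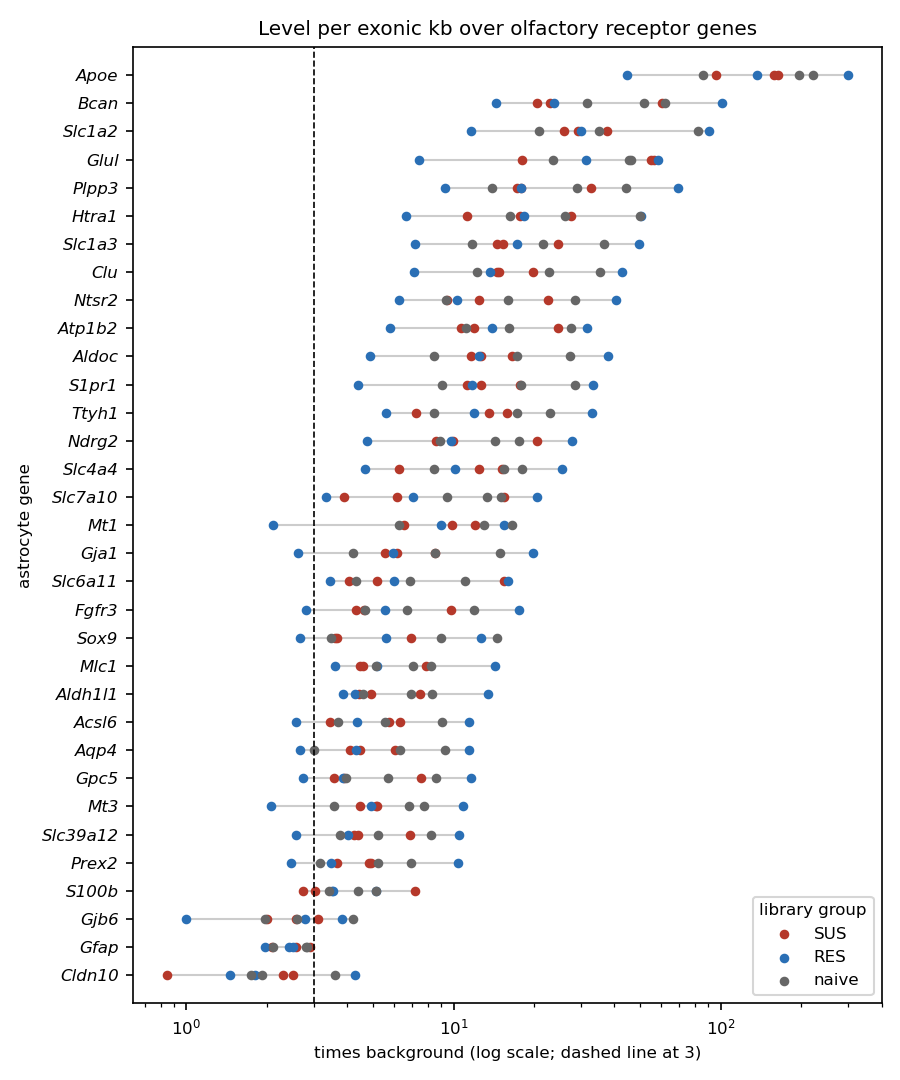
Level of 33 astrocyte genes (rows, ordered by mean) as count per exonic kb over that of olfactory receptor genes, on a log axis. Points are the 9 libraries, coloured by group (SUS, RES, naive), the grey line joins the lowest and highest, and the dashed line marks 3 times background. Apoe stands at the top with 44.6 to 299.5. Gfap lies wholly below the dashed line (1.96 to 2.9). Gjb6 (0.998 to 4.19) and Cldn10 (0.847 to 4.29) cross it, with means below it (2.67 and 2.27).

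Neighbouring genes may have affected the counting of a few members. In the annotation used, 25 of the 34 shared no exonic bases with another gene and 4 shared over 10% of them: Mt2 (73.5%), Slc7a10 (17.9%, with Lrp3 on the opposite strand), Fgfr3 (13.9%) and Aldh1l1 (13.4%). The strand setting of the counting is not given in the sources used here, so the values of these 4 are uncertain. The 34 genes lay on 14 chromosomes.

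The metallothionein genes Mt3, Mt2 and Mt1 follow one another on chromosome 8 (GRCm38, + strand, at 94152607 to 94154146, 94172664 to 94173568 and 94179082 to 94180327). They encode small proteins that bind zinc and copper, and Mt1 and Mt2 are textbook targets of the metal-responsive factor MTF1. Their promoters are shown because the 3 neighbours differed in level. Each run covers the 250 bases before and the 50 after the RefSeq start (GRCm38.p6), at chr8:94178839-94179138 for Mt1, chr8:94172368-94172667 for Mt2 and chr8:94152357-94152656 for Mt3, all on the + strand. Capitals mark the core of the metal response element, TGCGCNC or TGCACNC, on either strand.
Mt1: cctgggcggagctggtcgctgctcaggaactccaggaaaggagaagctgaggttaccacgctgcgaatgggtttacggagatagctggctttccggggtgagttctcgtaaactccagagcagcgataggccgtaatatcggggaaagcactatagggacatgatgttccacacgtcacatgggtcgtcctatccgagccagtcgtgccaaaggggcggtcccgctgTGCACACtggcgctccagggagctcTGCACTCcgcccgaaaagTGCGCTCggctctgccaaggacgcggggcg
Mt2: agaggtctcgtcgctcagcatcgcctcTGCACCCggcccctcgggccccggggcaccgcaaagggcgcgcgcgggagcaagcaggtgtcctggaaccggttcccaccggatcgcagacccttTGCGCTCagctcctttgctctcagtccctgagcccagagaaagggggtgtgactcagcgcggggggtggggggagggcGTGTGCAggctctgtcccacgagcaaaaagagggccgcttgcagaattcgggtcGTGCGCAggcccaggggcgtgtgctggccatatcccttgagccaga
Mt3: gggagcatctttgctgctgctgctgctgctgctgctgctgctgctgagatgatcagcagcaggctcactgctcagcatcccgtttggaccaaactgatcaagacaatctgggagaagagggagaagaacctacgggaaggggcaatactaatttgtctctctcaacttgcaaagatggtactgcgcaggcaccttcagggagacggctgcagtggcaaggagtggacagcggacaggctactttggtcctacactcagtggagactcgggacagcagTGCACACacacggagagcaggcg

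Mt1 held 3 matches, Mt2 4 and Mt3 1, and no matches overlapped. Over all 32851 promoters of this length in the table, 25.7% held at least 1 match of either form, against 26.3% of the 38 promoters found for 28 of the 34 astrocyte genes. A match is a run of letters and says nothing here of binding. Of the other motifs searched on both strands, ACAAT, the core bound by SOX proteins such as that of Sox9, was in 10.5% of the 38 promoters and 31.0% of all. The STAT site TTCNNNGAA was in 10.5% and 8.3%, and the full palindrome of nuclear factor I was in 0 of the 38 and 0.0365% of all.

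Mt1 had 29.0, 16.2 and 27.8 CPM (counts scaled for the depth and composition of the library) in SUS, 24.7, 33.3 and 5.98 in RES, and 16.9, 37.8 and 31.6 in naive replicates 1 to 3. RES replicate 3 was lowest of all and naive replicate 2 highest, so each group held both high and low libraries. Mt3, the metallothionein of brain, had 10.6, 9.42 and 12.5 CPM in SUS, 11.6, 19.8 and 5.07 in RES, and 8.27, 15.1 and 14.3 in naive. Mt2 had raw counts of 5, 0 and 11 in SUS, 3, 0 and 3 in RES, and 1, 0 and 1 in naive. In the 3 libraries with a count of 0 the limit that 3 counts allow was 0.333 CPM in SUS replicate 2, 0.644 in RES replicate 2 and 0.907 in naive replicate 2. Of the 588 exonic bases of Mt2, 432 are shared with Gm45774 on the opposite strand. The counts were not located within the gene. If all of them came from the 156 bases it does not share, its density would be 1.78, 0 and 3.78 times background in SUS. It would be 1.53, 0 and 1.09 in RES, and 0.393, 0 and 0.303 in naive. Mt1 in the same libraries was at 12.0, 6.53 and 9.89 times background in SUS, 8.98, 15.5 and 2.1 in RES, and 6.25, 16.5 and 13 in naive.

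The astrocyte genes shared one pattern over the libraries, and it did not follow the groups. Of the 33 tested genes, 24 were highest in RES replicate 2, 28 (84.8%) were highest in RES replicate 2 or naive replicate 3, and 30 (90.9%) were lowest in RES replicate 3. Over all 39210 genes tested, 21.3% were highest in one of the same pair of libraries and 18.4% were lowest in RES replicate 3. Over the 5754 protein-coding genes above 3 times background these shares were 27.5% and 60.7%. In 25 of the 33 genes (75.8%) RES replicate 2 and naive replicate 3 were the top pair, against 4.21% of all genes and 7.75% of the protein-coding ones. These shares are descriptions, as the genes were read in the same libraries. They hold for CPM from which no background was subtracted. Subtraction, described below, changed the lowest library of many members.

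**Figure D2:**
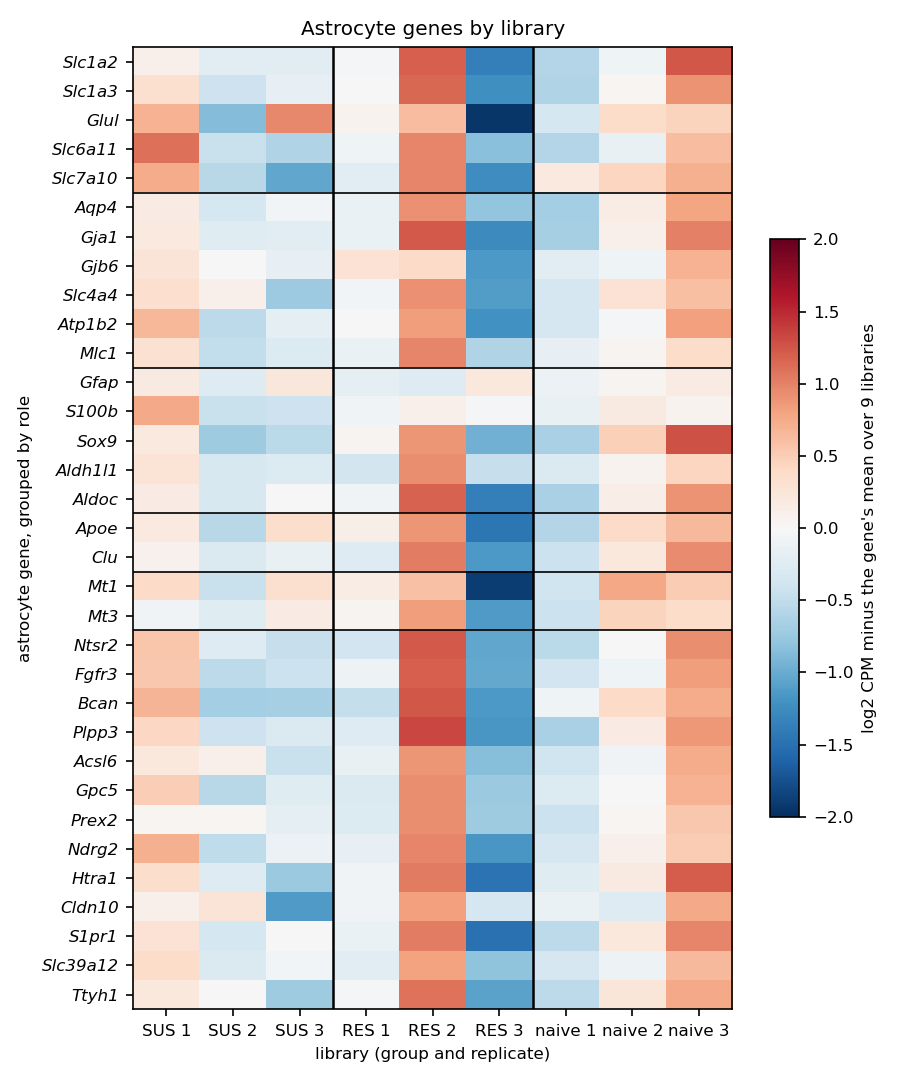
Log2 CPM of 33 astrocyte genes (rows, grouped by role) minus the gene's mean over the 9 libraries (columns, in the order SUS, RES, naive). Red is above the gene's mean and blue below it. The columns of RES replicate 2 and naive replicate 3 are red and that of RES replicate 3 is blue in nearly all rows, and the row of Gfap is pale throughout.

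Inside each group the order of libraries was also shared. SUS replicate 1 was the highest SUS library in 27 of 33 genes (81.8%). RES replicate 2 was the highest RES library in 32 (97.0%) and naive replicate 3 the highest naive library in 30 (90.9%). Over all genes tested these shares were 25.8%, 33.8% and 34.1%. Over the protein-coding genes above 3 times background they were 31.7%, 57.3% and 26.9%. RES replicate 3 was the lowest RES library in 31 of the 33 (93.9%). That share was 36.4% over all genes tested and 81.5% over the same protein-coding genes, so a low RES replicate 3 was common to most of them. Among the 33, the exceptions in SUS were Gfap, Glul, Apoe and Mt3, highest in SUS replicate 3, and Prex2 and Cldn10, highest in SUS replicate 2. In RES, Gfap was highest in replicate 3 and lowest in replicate 2, and S100b was lowest in replicate 1. In naive, S100b, Mt1 and Mt3 were highest in replicate 2, and Cldn10 was lowest there. The ratio of RES replicate 2 to RES replicate 3 ran from 0.728 (Gfap) to 5.9 (Glul) with a median of 4.38. That of naive replicate 3 to naive replicate 1 ran from 1.15 (S100b) to 3.77 (Sox9) with a median of 2.21.

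The range between single replicates exceeded the range of the group means. These are unlike quantities, since a mean of 3 libraries varies less than single libraries do. On the log2 CPM scale the range inside a group had a median over the 33 genes of 0.84 in SUS, 2.13 in RES and 1.15 in naive, while the range of the 3 group means had a median of 0.24 and a maximum of 0.73 (Slc7a10). The range of group means was smaller than the range inside every group for 32 of 33 genes, against 52.0% of all genes tested and 67.1% of the protein-coding genes above 3 times background. In bulk libraries, fewer astrocytes and less RNA per astrocyte cannot be told apart.

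The 5 genes grouped under glutamate and GABA uptake include Glul, an enzyme gene, and Slc7a10, a carrier of small neutral amino acids. Of these 5, Slc1a2, Slc1a3 and Slc7a10 had RES replicate 2 or naive replicate 3 as the highest library. Slc1a2, the main glutamate transporter of forebrain astrocytes (chromosome 2, 102658659 to 102790784), had 958, 764 and 769 CPM in SUS, 874, 2044 and 349 in RES, and 599, 842 and 2117 in naive. Its highest library was 6.06 times its lowest, and RES held both a very high and the lowest value. Slc1a3, the second glutamate transporter of astrocytes, had 409.8, 248 and 295 CPM in SUS, 327, 727 and 140.2 in RES, and 217, 339 and 612 in naive. The groups overlapped for both transporters. Glul had another order within SUS, with 354, 119.7 and 422 CPM in SUS, 229, 333 and 56.4 in RES, and 170.2, 282 and 296 in naive. Its highest value was 7.48 times its lowest, the widest such ratio among the tested genes.

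Slc6a11, which takes up GABA, had 152, 51.8 and 46.4 CPM in SUS, 66.4, 139 and 39.8 in RES, and 47.3, 63.8 and 109 in naive. SUS replicate 1 was its highest library. Slc7a10, a carrier of small neutral amino acids including serine and glycine, had 63.7, 25.8 and 18.5 CPM in SUS, 32.8, 74.5 and 16.1 in RES, and 43.5, 51.4 and 62.4 in naive. Its naive libraries lay close together at the upper end, but SUS replicate 1 and RES replicate 2 lay above all of them.

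The 6 genes of water, ions and gap junctions were all lowest in RES replicate 3, and all but Gjb6 were highest in RES replicate 2. Aqp4, the water channel of endfeet, had 73.4, 51.0 and 62.6 CPM in SUS, 59.2, 123 and 37.8 in RES, and 40.8, 72.2 and 113 in naive. Gja1, which encodes the gap junction protein connexin 43, had 169.7, 125 and 128 CPM in SUS, 135, 349 and 61.3 in RES, and 94.0, 160.2 and 299 in naive. In both, RES replicate 2 was highest and RES replicate 3 lowest. Gjb6, the gene of connexin 30, had 16.1, 13.6 and 12.1 CPM in SUS, 16.5, 17.6 and 6.11 in RES, and 11.5, 12.7 and 21.9 in naive, at a mean of only 2.67 times background.

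Slc4a4, the sodium bicarbonate cotransporter, had 319, 269 and 152 CPM in SUS, 241, 474 and 116 in RES, and 199, 308 and 381 in naive. Atp1b2, a subunit of the sodium pump, had 197, 86.7 and 110 CPM in SUS, 125, 222 and 54.2 in RES, and 99.0, 121 and 220 in naive. Mlc1, a membrane protein of endfeet, had 43.1, 24.8 and 28.9 CPM in SUS, 31.9, 68.9 and 23.0 in RES, and 31.2, 36.3 and 45.3 in naive. All 6 genes of this role overlapped between the groups.

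The 5 genes of cytoskeleton, transcription and enzymes differed among themselves. Gfap, the intermediate filament of reactive astrocytes (chromosome 11, 102887336 to 102900912), had 23.8, 17.5 and 24.4 CPM in SUS, 18.2, 17.6 and 24.2 in RES, and 19.3, 21.8 and 23.4 in naive. Its highest library was only 1.39 times its lowest, and it did not share the high value of RES replicate 2 or the low value of RES replicate 3. S100b, a calcium-binding protein, had 20.7, 8.98 and 9.19 CPM in SUS, 11.6, 13.1 and 12.0 in RES, and 11.1, 13.9 and 12.8 in naive. It stood out in SUS replicate 1 alone, and the levels of both genes were low (means of 2.47 times background for Gfap and 4.23 times for S100b).

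Sox9, a transcription factor that specifies astrocytes, had 55.9, 30.0 and 33.6 CPM in SUS, 50.8, 90.4 and 25.1 in RES, and 31.3, 68.3 and 118 in naive. It was the only gene of its role that was highest in naive replicate 3. Aldh1l1, an enzyme of folate metabolism, had 66.1, 44.0 and 45.2 CPM in SUS, 42.6, 104 and 39.9 in RES, and 44.9, 57.4 and 73.3 in naive. Aldoc, a glycolytic aldolase, had 105, 75.2 and 93.3 CPM in SUS, 89.4, 213 and 36.4 in RES, and 59.9, 103 and 174 in naive. The ratio of RES replicate 2 to RES replicate 3 was 5.84 for Aldoc, the highest of these 5 genes.

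Lipid carriers had high levels throughout. Apoe had 682, 407 and 762 CPM in SUS, 649, 1101 and 218 in RES, and 399, 775 and 929 in naive. Clu, which encodes clusterin, had 132, 101 and 112 CPM in SUS, 104, 252 and 56.1 in RES, and 91.6, 143 and 238 in naive. RES replicate 3 was the lowest library for both. The 13 members outside these roles include Bcan, the receptors Ntsr2, Fgfr3 and S1pr1, and Htra1, a secreted protease. All 13 were higher in RES replicate 2 than in RES replicate 3, by 2.23 to 5.74 times with a median of 4.43. RES replicate 3 was the lowest RES library for 81.5% of the protein-coding genes above 3 times background as well. Bcan, the most abundant of them, had 477, 185 and 188 CPM in SUS, 214, 703 and 134 in RES, and 279.8, 385 and 494 in naive. Htra1 had 154, 101 and 72.7 CPM in SUS, 116, 250.0 and 43.6 in RES, and 102, 138 and 281 in naive, and unlike most members it was highest in naive replicate 3. Cldn10, which encodes a claudin of cell junctions, was the lowest of these 13, with 11.6, 12.9 and 4.96 CPM in SUS, 10.3, 19.1 and 8.58 in RES, and 9.87, 9.07 and 18.3 in naive. For the remaining 10, the highest library was 3.06 to 5.73 times the lowest.

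Receptors among these 13 shared the order of libraries. Ntsr2, a receptor of neurotensin, had 136, 77.0 and 66.7 CPM in SUS, 71.0, 216 and 44.7 in RES, and 63.3, 91.6 and 175 in naive. Fgfr3, a receptor of fibroblast growth factors, had 136, 65.7 and 69.6 CPM in SUS, 87.3, 215 and 46.0 in RES, and 72.4, 88.3 and 167 in naive. S1pr1, a receptor of sphingosine phosphate, had 106, 68.0 and 87.4 CPM in SUS, 78.5, 175 and 30.6 in RES, and 59.9, 100 and 170.2 in naive. In all 3 receptors RES replicate 2 was highest, naive replicate 3 second and RES replicate 3 lowest.

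Plpp3 had 200.4, 112 and 122 CPM in SUS, 125, 377 and 67.1 in RES, and 95.5, 168 and 273 in naive, and Ttyh1, an anion channel of the tweety family, had 198, 172 and 104 CPM in SUS, 168, 361 and 81.5 in RES, and 118, 202 and 288 in naive. Among genes with smaller ratios, Slc39a12, a zinc transporter, had 40.0, 25.2 and 29.6 CPM in SUS, 26.6, 54.1 and 17.7 in RES, and 24.5, 28.7 and 48.2 in naive, a highest library 3.06 times the lowest. Gpc5, a heparan sulfate proteoglycan, had 65.5, 31.6 and 39.1 CPM in SUS, 37.9, 88.5 and 27.7 in RES, and 38.3, 46.2 and 75.0 in naive. Every one of these genes was high in RES replicate 2 and low in RES replicate 3, and none separated the groups. Acsl6, Prex2 and Ndrg2 were also highest in RES replicate 2 and lowest in RES replicate 3, over 36.9 to 296 CPM together.

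**Figure D3:**
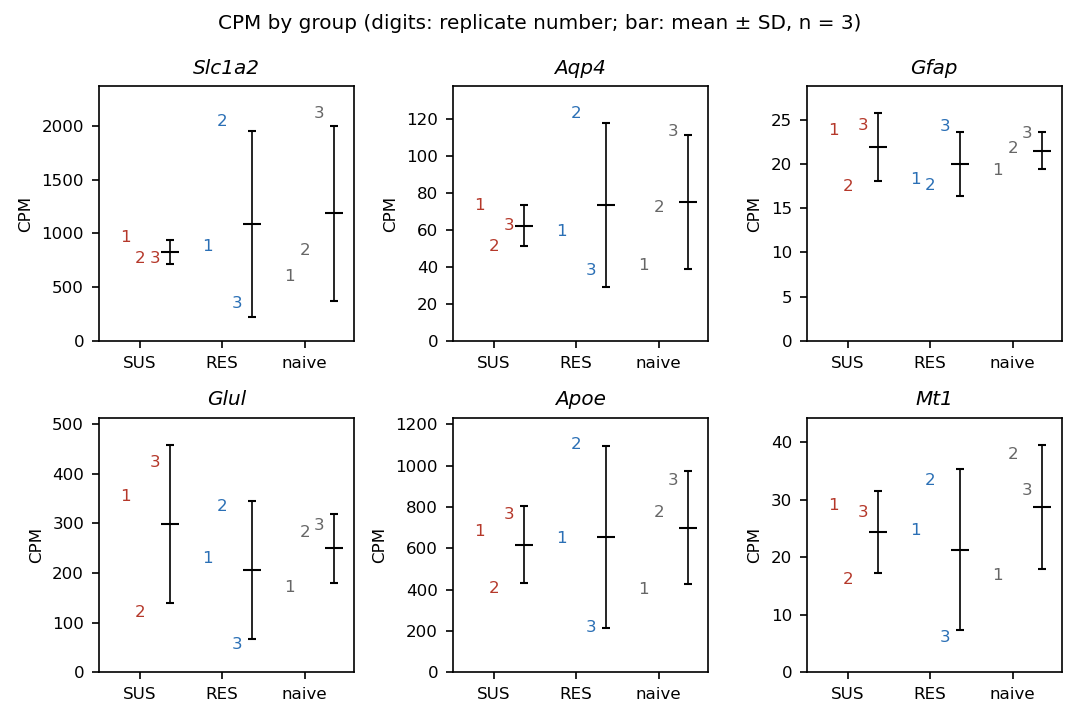
CPM of 6 astrocyte genes by group (SUS, RES, naive from left to right). Digits are the replicate numbers and the bar beside them is the mean ± SD of 3 libraries. Replicate 2 of RES and replicate 3 of naive stand high for Slc1a2 and Aqp4, while the Gfap values all lie between 17.5 and 24.4 CPM.

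Subtraction of background left the same pair of libraries highest for the main transporter. With each gene's expected background counts removed before scaling, an alternative with no test, Slc1a2 had 1407, 1291 and 1349 CPM in SUS, 1396, 3026 and 1004 in RES, and 1156, 1058 and 3548 in naive, and the highest library was 3.53 times the lowest. Aqp4 had 92.5, 67.6 and 88.6 CPM in SUS, 75.2, 168 and 74.1 in RES, and 55.2, 78.6 and 171 in naive, and here naive replicate 1 and not RES replicate 3 was lowest. Gfap then had 23.6, 16 and 27.2 CPM in SUS, 14.7, 15.5 and 45.7 in RES, and 20.6, 18.1 and 25.7 in naive. Its highest library was then RES replicate 3, at 3.1 times the lowest. Among other members, RES replicate 3 stayed the lowest library for some, such as Slc1a3, Gja1, Glul and Apoe. For others it did not: Bcan, Sox9, Fgfr3 and Ndrg2 were lowest in SUS replicate 2, and Slc4a4 and Ttyh1 in SUS replicate 3.

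Markers of other cells shared some features of the astrocyte pattern over the libraries, and microglial genes differed most plainly from it. The summed level of the 34 astrocyte genes was 5823, 3671 and 4241 CPM in SUS, 4371, 9527 and 2015 in RES, and 3357, 5129 and 8399 in naive. That of 18 microglial genes was 5378, 371 and 7317 CPM in SUS, 2359, 196 and 274 in RES, and 2348, 4288 and 423 in naive. RES replicate 2 and naive replicate 3, high in astrocyte genes, were thus low in microglial ones, where the 18 genes had medians of 1.98 and 3.49 times background. That of 16 genes of medium spiny neurons, the main neurons of the region, was 1686, 3341 and 860 CPM in SUS, 2563, 3261 and 983 in RES, and 1754, 3251 and 2675 in naive. Their sum, like that of the astrocyte genes, was high in RES replicate 2 and low in RES replicate 3. The sum of 12 pan-neuronal genes was 680.3, 1241 and 489.6 CPM in SUS, 987, 1254 and 496 in RES, and 673, 1127 and 1071 in naive, and here too RES replicate 2 was highest. RES replicate 3 was also the lowest library for the sums of oligodendrocyte (284 CPM), oligodendrocyte precursor (212 CPM) and endothelial and mural genes (271 CPM). The oligodendrocyte sum was highest in SUS replicate 1 (2302 CPM). It was only 541 CPM in RES replicate 2 and 386 CPM in naive replicate 3, the libraries high in astrocyte genes. No microglial, medium spiny neuron or pan-neuronal gene had a count of 0 in any library.

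Astrocyte RNA therefore had no fixed proportion to that of the other cells. The summed astrocyte level was 0.58 (SUS replicate 3) to 48.6 (RES replicate 2) times the microglial one. It was 1.1 (SUS replicate 2) to 4.93 (SUS replicate 3) times that of medium spiny neurons, and 2.53 (SUS replicate 1) to 21.8 (naive replicate 3) times that of 12 oligodendrocyte genes. RES replicate 3, lowest in the astrocyte sum, also had the largest share of counts at background density. The part of these cell types and of background in the comparisons of groups below was not tested.

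**Figure D4:**
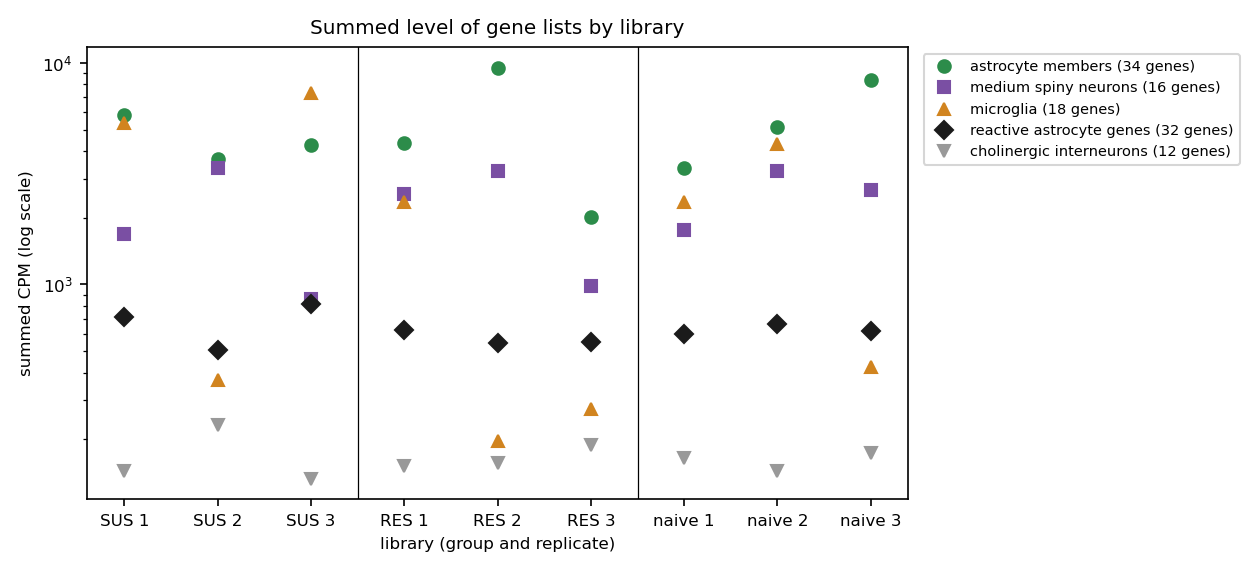
Summed CPM (log axis) of 5 gene lists in the 9 libraries (SUS, RES, naive from left to right). Each point is 1 library and each symbol 1 list. Astrocyte genes run from 2015 to 9527 CPM and microglial genes from 196 to 7317 CPM, with their lowest and highest values in different libraries.

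SUS against naive asked how one cocaine group differed from drug-naive mice. Astrocyte genes were mostly lower in SUS, by amounts smaller than the spread between replicates, and none passed the test. The fold change was below 0 for 29 and above 0 for 4 of the 33 genes, with a median log2 fold change of -0.24, against a median of 0.02 over all 39210 genes, of which 52.2% were above 0. Of the 33 genes, 0 were called by edgeR's quasi-likelihood test at an adjusted p of 0.05, and 0.0% of all genes were, and DESeq2 and limma-voom also called 0 genes in this and each later comparison. At an unadjusted p under 0.05 stood 0 of the 33 and 3.12% of all genes. The groups failed to separate for all 33, where 3.85% of all genes were wholly higher and 4.15% wholly lower in SUS. Sox9 had the smallest p, with 39.8 ± 14.0 CPM in SUS and 72.6 ± 43.5 CPM in naive (SD, n = 3 each) and a log2 fold change of -0.87 ± 0.486 (SE, edgeR adjusted p = 1.0).

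Among the other genes that were lower in SUS, Htra1 had a log2 fold change of -0.67 ± 0.555 and Slc7a10 one of -0.54 ± 0.495. Slc1a2 had -0.51 ± 0.707 and Aqp4 -0.28 ± 0.436. Above 0 were Glul (0.26 ± 0.592), Slc6a11 (0.18 ± 0.518), S100b (0.05 ± 0.296) and Gfap (0.03 ± 0.233). All 6 genes of water, ions and gap junctions and all 13 members outside the named roles were below 0. One library decided the direction: without naive replicate 3 the median log2 fold change was 0.12 and 23 of the 33 genes were above 0. Without SUS replicate 1 it was -0.51, when naive replicate 1 was left out it was -0.50, and limma-voom, which weights the libraries, gave -0.02 with 15 genes above 0. Beside them, all 18 microglial genes were above 0 with a median log2 fold change of 0.87, all 12 oligodendrocyte genes were above 0 with a median of 0.46, and 0 of either list passed the test.

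RES against naive asked the same of the other cocaine group. Astrocyte genes lay close to equality on average and varied most between the libraries of RES. Of the 33 genes 22 were below and 11 above 0, with a median log2 fold change of -0.06 against -0.02 over all genes, of which 47.4% were above 0. The edgeR test called 0 of the 33 and 0.0% of all genes, and 0 of the 33 had an unadjusted p under 0.05, as did 0.921% of all. The groups overlapped for all 33, where 3.31% of all genes were wholly higher and 2.82% wholly lower in RES. Mt1 had the smallest p, with 21.3 ± 14.0 CPM in RES and 28.8 ± 10.7 CPM in naive (SD, n = 3 each) and a log2 fold change of -0.44 ± 0.464 (SE, edgeR adjusted p = 1.0).

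Sox9 had -0.39 ± 0.484, Slc7a10 -0.36 ± 0.497, Slc1a2 -0.12 ± 0.705, Gfap -0.10 ± 0.235 and Aqp4 -0.05 ± 0.437. Above 0 stood Slc6a11 (0.15 ± 0.519), Mlc1 (0.13 ± 0.368) and Aldh1l1 (0.09 ± 0.378). The median turned with the libraries used. It was -0.70 without RES replicate 2, the library highest in astrocyte genes. It was above 0 when naive replicate 3 (0.28), RES replicate 3 (0.27) or RES replicate 1 (0.09) was left out. With libraries scaled by total nuclear counts it was 0.03, with 20 of 33 genes above 0, a scaling that moved the median over all genes to 0.14. With background subtracted it was 0.02, also with 20 of 33 above 0. Beside them, all 18 microglial genes were below 0 with a median log2 fold change of -1.31, 10 of 12 oligodendrocyte genes were below 0 with a median of -0.50, and 0 of either list passed the test.

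SUS against RES compared the cocaine groups with each other. Astrocyte genes were mostly lower in SUS, again within the spread of replicates. Of the 33 genes 27 were below and 6 above 0, with a median log2 fold change of -0.18 against 0.01 over all genes, of which 51.2% were above 0. The edgeR test called 0 of the 33 and 0.0% of all genes. At an unadjusted p under 0.05 stood 0 of the 33 and 5.68% of all genes. No gene of the 33 separated the groups, where 3.41% of all genes were wholly higher and 4.22% wholly lower in SUS. Sox9 had the smallest p, with 39.8 ± 14.0 CPM in SUS and 55.5 ± 32.9 CPM in RES (SD, n = 3 each) and a log2 fold change of -0.47 ± 0.485 (SE, edgeR adjusted p = 0.957).

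Glul was the gene furthest above 0, with 299 ± 159 CPM in SUS and 206 ± 139.7 CPM in RES (SD, n = 3 each) and a log2 fold change of 0.54 ± 0.593 (SE). Mt1 had 0.21 ± 0.461 and Gfap 0.13 ± 0.233. Below 0 were Slc1a2 (-0.39 ± 0.706), Mlc1 (-0.35 ± 0.367), Cldn10 (-0.35 ± 0.381) and Aqp4 (-0.23 ± 0.437). Without RES replicate 2 the median was 0.46 and all 33 genes were above 0. Without RES replicate 3 it was -0.54 with 30 below 0, and without SUS replicate 1 it was -0.46. With limma-voom it was 0.14 with 26 above 0, and with libraries scaled by total nuclear counts it was -0.26, where the median over all genes was -0.14. In the same comparison all 18 microglial genes had a fold change above 0, with a median log2 fold change of 2.18. Of these 18, 12 had an unadjusted p under 0.05 and 0 passed the test. Oligodendrocyte genes were above 0 for 11 of 12, with a median of 1.07, and 0 passed.

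All cocaine libraries against naive asked about cocaine self-administration whatever the group names mean. Of the 33 genes 30 were below and 3 above 0, with a median log2 fold change of -0.14 against 0.01 over all genes, of which 51.4% were above 0. The edgeR test called 0 of the 33 and 0.0% of all genes. At an unadjusted p under 0.05 stood 0 of the 33 and 1.38% of all genes. The 6 cocaine and 3 naive libraries overlapped for all 33, where 0.617% of all genes were wholly higher and 0.553% wholly lower in cocaine. Sox9 again led, with a log2 fold change of -0.61 ± 0.416 (SE, edgeR adjusted p = 1.0). Htra1 had -0.50 ± 0.463, Slc7a10 -0.45 ± 0.419, Slc1a2 -0.31 ± 0.568, Aqp4 -0.16 ± 0.369 and Gfap -0.03 ± 0.196. Above 0 were Slc6a11 (0.16 ± 0.442), Glul (0.02 ± 0.508) and S100b (0.01 ± 0.253). The median was 0.19 without naive replicate 3, with 28 genes above 0, and 0.01 without RES replicate 3. It was -0.40 without RES replicate 2 and -0.39 without naive replicate 1. All 18 microglial genes were above 0 with a median of 0.17, and 0 passed the test. The comparisons share libraries, so their values are not independent of one another.

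**Figure D5:**
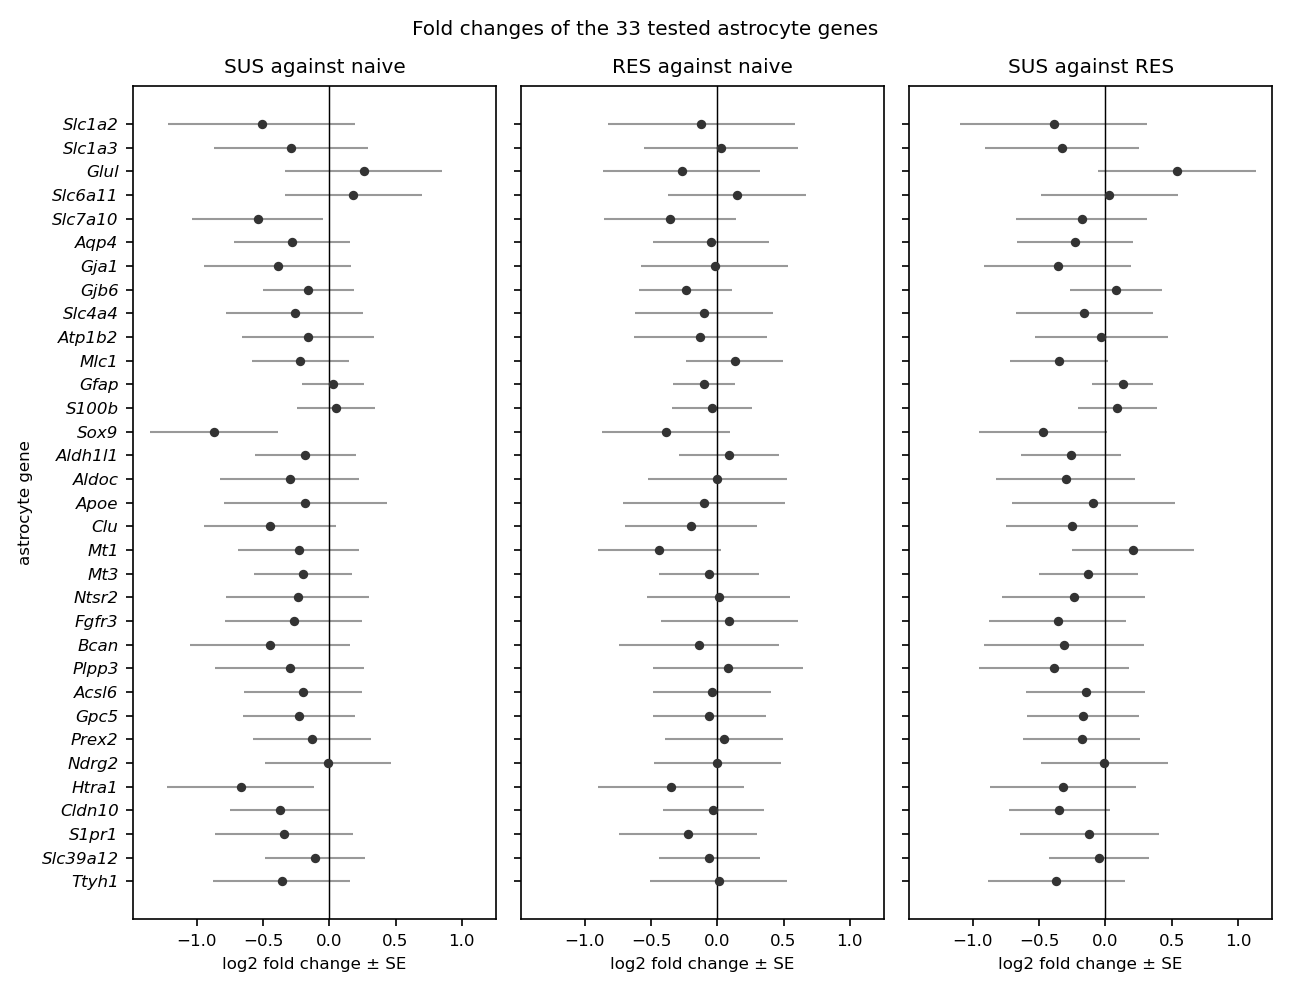
Log2 fold change (points) and standard error (bars) of the 33 tested astrocyte genes, 1 panel each for SUS against naive, RES against naive and SUS against RES. Positive values are higher in the group named first. Most points lie left of 0 in the panels of SUS against naive and SUS against RES, and Sox9 is furthest left in both.

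Related genes outside the 34 gave a similar but weaker picture. The 38 other astrocyte genes include Kcnj10, the potassium channel of astrocytes, and Hepacam, an adhesion molecule. Of the 38, 28 (73.7%) were highest in RES replicate 2 or naive replicate 3 and 25 (65.8%) lowest in RES replicate 3. Over all genes tested these shares were 21.3% and 18.4%. Over the protein-coding genes above 3 times background they were 27.5% and 60.7%, so the second share of the 38 was near the general one. The edgeR test called 0 of the 38 in every comparison. Their median log2 fold change was -0.25 for SUS against naive (27 of 38 below 0), -0.12 for RES against naive (24) and -0.15 for SUS against RES (25). The widest single values were those of Cst3, which encodes cystatin C and is made by microglia as well. It averaged 919 ± 797 CPM in SUS and 220.1 ± 245 CPM in RES (SD, n = 3 each), a log2 fold change of 2.06 ± 0.993 (SE, edgeR adjusted p = 0.87). Agt, the gene of angiotensinogen, had 13.2 ± 10.3 CPM in SUS and 6.27 ± 1.52 CPM in naive and a log2 fold change of 1.03 ± 0.434 (edgeR adjusted p = 1.0).

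Genes of the reactive state were low. Of 32 such genes, 4 averaged over 3 times background, and their sum was 712, 504 and 814 CPM in SUS, 625, 544 and 548 in RES, and 599, 664 and 615 in naive. RES replicate 2 had one of the lower sums, but the median of the 32 genes there was 1.78 times background in a range of 1.45 to 1.99 over the libraries. None passed the test in any comparison. The median log2 fold change was -0.03 for SUS against naive (16 of 32 above 0), -0.05 for RES against naive (12) and -0.04 for SUS against RES (15). Psmb8, a subunit of the immunoproteasome at 0.937 times background, had 11.6 ± 8.04 CPM in SUS and 3.4 ± 0.958 CPM in RES (SD, n = 3 each), a log2 fold change of 1.79 ± 0.493 (edgeR adjusted p = 0.87). S1pr3, a receptor of sphingosine phosphate at 1.62 times background, had 12.3 ± 1.04 CPM in SUS and 17.8 ± 4.04 CPM in naive (log2 fold change -0.54 ± 0.221, edgeR adjusted p = 1.0). Its groups did not overlap, as was so for 4.15% of all genes tested, wholly lower in SUS than in naive.

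Enzymes and carriers of glutamate, lactate and glycogen that are not confined to astrocytes were at middle levels, with 12 of 20 over 3 times background and sums of 746 to 1101 CPM in SUS, 542 to 1089.6 CPM in RES, and 724 to 1011 CPM in naive. The edgeR test called 0 of the 20 in every comparison. Here the median log2 fold change was 0.08 for SUS against naive (14 of 20 above 0), -0.17 for RES against naive (3) and 0.17 for SUS against RES (15). Ldha, a subunit of lactate dehydrogenase, had 35.1 ± 13.5 CPM in SUS, 22.4 ± 5.7 CPM in RES and 25.5 ± 5.19 CPM in naive. Its log2 fold change was 0.65 ± 0.305 for SUS against RES (edgeR adjusted p = 0.87).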

How the data were processed

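RNA sequencing of 9 libraries was deposited as 1 table of raw counts per Ensembl gene (52636 genes), whole numbers that the authors did not normalize, as the values and their differing totals show. The submitters' processing notes name the build GRCm38 and, among tools, STAR 2.5.2b, FastQC, DESeq2, DESeq and HTSeq, and their roles, order, strand setting and annotation are not given in the sources used here. Positions, exons and symbols came from GENCODE M21 (GRCm38) for 52489 IDs, and 147 had no symbol. Members and lists were chosen with earlier results of these data known.

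Genes were filtered with filterByExpr (minimum count 10, 39210 genes left), TMM-scaled and tested with edgeR's quasi-likelihood method (R 4.3.3 with edgeR 4.0.16 and limma 3.58.1) in 1 model of the 3 groups, or of cocaine and naive. P-values were adjusted over all genes by Benjamini-Hochberg at 0.05, and each standard error was computed from the log2 change and the F value. The procedure was tested on simulated data. CPM values are TMM-scaled. Background was the count of 1134 olfactory receptor genes over their exonic kb. Fold changes are printed for Slc1a2, Aqp4 and Gfap and for the 3 members with the smallest p in each direction, and for other lists for up to 2 genes with the smallest p per comparison. Reads without molecular identifiers are not independent molecules, so the limit given for a count of 0 covers counting error only. Alternatives were DESeq2 size factors, total nuclear counts, DESeq2 1.42.0, limma-voom with sample weights, no filter (at least 1 count), background subtraction, the replicate number as a block, and each library left out. Pairs of libraries left out together were chosen after seeing the data.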

Additional observations from a re-analysis of the deposited data

Results flagged for a closer look

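Among the 6 cocaine libraries, 1 library stood apart from the others in 3 of the 33 tested astrocyte genes: its gap to the nearest library, as a part of the whole range, exceeded Dixon's critical value for 6 samples. The rule was applied to CPM and not to log2 CPM. Chance alone flags about 1 in 20 such groups if the values are normally distributed, which was not checked. The 33 genes were read in the same libraries, so 3 of 33 cannot be set against that rate. Slc1a2 in RES replicate 2 was at 2044 CPM (gap 0.641 of the range). Prex2, which encodes an activator of the GTPase Rac, was at 296 CPM in the same library (gap 0.677). S100b was at 20.7 CPM in SUS replicate 1 (gap 0.648).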

How the results depend on the processing

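No alternative called a gene in any comparison, so the counts of 0 held throughout. Replicate numbers did not pair the libraries: deviations from the group means of same-numbered libraries correlated at -0.17 to 0.172. With the replicate block the medians were -0.23 (SUS against naive), -0.13 (RES against naive), -0.10 (SUS over RES) and -0.18 (cocaine against naive), and S100b had -0.01 for SUS against naive and -0.03 for cocaine against naive, turning its sign. With 1 library left out, the medians of the 33 genes ran from -0.51 to 0.12, -0.70 to 0.28, -0.54 to 0.46 and -0.40 to 0.19 in the same order of comparisons. With background subtracted, an alternative with no test, the medians were -0.27, 0.02, -0.31 and -0.1 in that order. Without naive replicate 3 and RES replicate 2 together, chosen after seeing the data, they were 0.12, -0.35, 0.45 and -0.03, and without naive replicate 3 and RES replicate 3 together 0.12, 0.61, -0.54 and 0.33. Signs also turned with total nuclear counts for Gfap (0.11 for RES against naive, -0.07 for SUS against RES, 0.07 for cocaine against naive) and Aqp4 (0.04 for RES against naive), where the median over all genes was 0.14, -0.14 and 0.09. With limma-voom they turned for Mlc1 (-0.03 for RES against naive, 0.04 for SUS against RES), Aldh1l1 (-0.15 for RES against naive), Aqp4 (0.02 for SUS against RES) and Glul (-0.17 for cocaine against naive). The cause was not tested. Leaving out 1 library turned these log2 fold changes, given as ranges: for SUS against naive Slc1a2 -0.84 to 0.20, Aqp4 -0.58 to 0.15, Glul -0.07 to 0.64, Slc6a11 -0.59 to 0.59, S100b -0.47 to 0.26 and Gfap -0.06 to 0.16. For RES against naive they were Mt1 -0.90 to 0.02, Sox9 -0.92 to 0.16, Slc7a10 -1.09 to 0.03, Gfap -0.26 to 0.00, Mlc1 -0.44 to 0.42, Slc6a11 -0.46 to 0.55, Aldh1l1 -0.49 to 0.33, Slc1a2 -0.94 to 0.60 and Aqp4 -0.62 to 0.38. For SUS against RES they were Sox9 -0.83 to 0.06, Mlc1 -0.64 to 0.22, Cldn10 -0.59 to 0.04, Slc1a2 -0.82 to 0.43, Aqp4 -0.55 to 0.35 and Mt1 -0.25 to 0.67. For cocaine against naive they were Htra1 -0.83 to 0.04, Slc1a2 -0.67 to 0.41, Aqp4 -0.46 to 0.27, Slc6a11 -0.10 to 0.57, Gfap -0.11 to 0.03, S100b -0.19 to 0.09 and Glul -0.19 to 0.23. Standard errors of the 33 genes had a median of 0.50 on the log2 scale in the comparisons of 3 with 3 libraries, so differences of the sizes seen were not detectable here.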
